A study of Drosophila melanogaster with 9 samples.

Results

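Metafemale third-instar larvae, which carry an additional X chromosome (genotype XXX), were compared with control male larvae (genotype XY), so that the X copies of animals without a male compensation system were set against the compensated single X of males. The comparison used 6 of the 9 RNA libraries of the study, 3 of metafemales and 3 of control males, and the 3 libraries of control females (genotype XX) are given beside some values for reference. All larvae were reared at 25 degrees, and RNA of whole larvae was sequenced after removal of ribosomal RNA. Metafemales came from females of the strain C(1)DX, ywf/winscy crossed to Canton S males and were picked by sex and by their black mouthparts, whereas the controls were Canton S larvae. In a metafemale, a pair of X chromosomes is therefore the attached compound C(1)DX, and the remaining X comes from the Canton S father. The dose of the X, sex, the Y chromosome, the gonad and the genetic background changed together between these groups and cannot be told apart. Nothing in the labels says that the replicates were separate cultures, so p-values measure the spread between these samples, which may be technical.

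In *Drosophila* males, the male-specific lethal (MSL) complex binds the single X and raises the transcription of its genes. The complex holds the proteins msl-1, msl-2, msl-3, mle and mof and either of the noncoding RNAs roX1 and roX2, which are transcribed from the X. In females, Sex-lethal (Sxl) blocks the synthesis of msl-2 and sends the sex determination pathway into its female branch through transformer, so the complex does not form. Larval males also differ from larval females in the gonad, since the larval testis is large and already holds spermatocytes with their own transcription program, and the Y chromosome carries fertility genes that are used there.

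Total counts per library were 130919406 to 177910781 in males and 139954374 to 168844124 in metafemales, and 17715 annotated genes were counted. Transcripts assembled without an annotated identifier took 24.6% to 32.6% of the counts in males and 25.8% to 27.1% in metafemales 2 and 3, but 13.5% in metafemale 1, which stood apart. Control male 2 stood apart from the other males by higher levels of ecdysone-induced genes and of testis genes, as described with those genes. The labels were checked by the Y-linked genes, which held 41486, 96171 and 20288 counts in the 3 males and 5, 4 and 4 counts in the 3 metafemales.

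The X was expressed above the autosomes in metafemales relative to males. Levels are given as CPM, the counts of a gene per 1000000 counts of its library, and the ratio of a gene is the mean CPM of metafemales over that of males. Over the 1698 X-linked protein-coding genes that averaged 1 CPM or more over the 6 libraries, the median ratio was 1.42, 1.21 and 1.29 in the 3 metafemale libraries and 1.31 ± 0.105 (SD, n = 3) with their mean. Over the 8874 genes of the large autosomal arms it was 0.860, 0.724 and 0.777, and 0.793 ± 0.0682 with their mean. Every metafemale library thus lay above 1 for the X and below 1 for the autosomes. In two-sided exact permutation tests over the 20 assignments of the libraries, p was 0.1 for the X, the smallest value this design can give, and 0.2 for the autosomes.

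Dividing the median of the X by that of the autosomes removes the scaling of a library. It was 1.65, 1.67 and 1.66 in the 3 metafemale libraries and 1.66 ± 0.00961 (SD, n = 3) with their mean (exact permutation p = 0.1, the smallest possible). Against each control male alone it was 1.64, 1.67 and 1.69. The spread between libraries was therefore far below the distance from 1. For the same genes, control females over control males gave 1.12, 1.10 and 1.13, and because both comparisons share the male libraries, the values are only set side by side.

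The arms of the autosomes were alike. The median ratio was 0.779 for 2L, 0.815 for 2R, 0.794 for 3L and 0.787 for 3R, with an SD of 0.0682 to 0.0701 over libraries. The small chromosome 4, with 78 genes, reached 0.903 ± 0.227 (SD, n = 3) and its 3 libraries lay on both sides of 1 at 1.19, 0.747 and 0.875 (exact permutation p = 0.8). The 13 mitochondrially encoded genes that passed the level had a median of 1.502 ± 0.184 (exact permutation p = 0.1), which was 1.98 without control male 1 and 1.29 without control male 2.

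**Figure D1:**
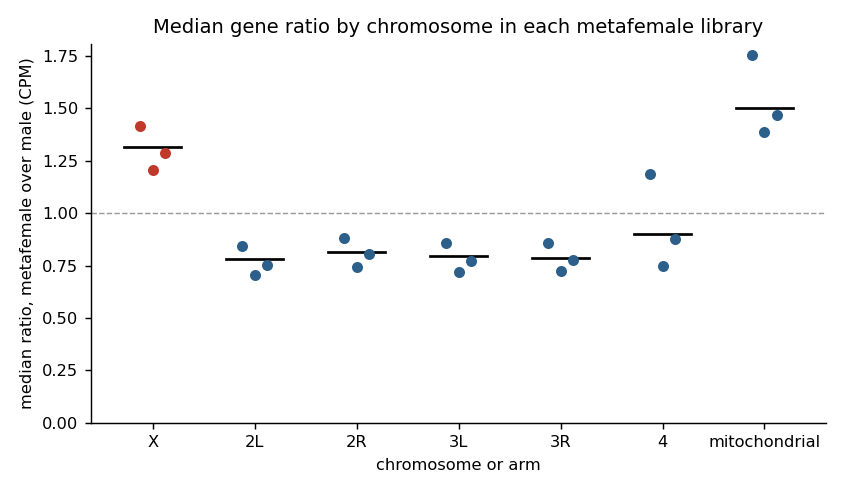
Median ratio of metafemale to control male CPM (y axis) for the genes of each chromosome or arm (x axis). Points are the 3 metafemale libraries against the mean of the males, and bars are the ratio of the group means. All X points lie between 1.21 and 1.42, and all points of the large autosomal arms lie below 1.

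The X genes spread around their median. Of the X-linked genes, 24.4% had a ratio below 1 and 37.2% a ratio above 1.5, and the quartiles of the ratio were 1.02 and 1.75. Among genes with at least 1 CPM in control females as well, a split chosen after seeing the data, the X over autosomal median was 1.61 (1482 X-linked and 7573 autosomal genes). Within the X of these genes, the median log2 fold change lay above the autosomal median by 0.67, 0.67, 0.72, 0.72 and 0.71 in 5 stretches with equal numbers of genes taken in order of position. In 5 classes by level in females it lay above it by 0.62 to 0.77. Every stretch and every level class of the X was thus shifted by a similar amount against the overall autosomal median. The autosomal classes also differed by level, with a median of -0.13 in the lowest and 0.10 in the highest, so the rise with level was not particular to the X. Among genes with at least 1 CPM in females, 9.46% of 1490 protein-coding X-linked genes and 53.2% of 7635 genes of the autosomal arms lay below 0. These log2 fold changes are TMM-scaled, so the shares are not comparable with the 24.4% of CPM ratios below 1.

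**Figure D2:**
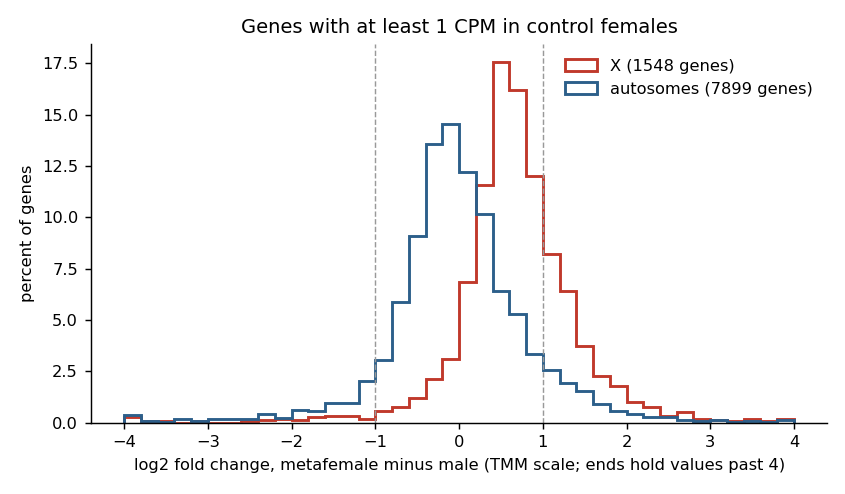
Distribution of the log2 fold change (x axis, metafemale minus male, positive values higher in metafemales) as percent of genes (y axis) for genes with at least 1 CPM in control females. Dashed lines mark a 2-fold change in either direction. The X curve (1548 genes) has its median at 0.64 and the autosomal curve (7899 genes) at -0.05.

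Gene by gene, edgeR's quasi-likelihood test with trimmed mean of M values (TMM) scaling tested 13784 genes. A gene was called at more than a 2-fold change with a Benjamini-Hochberg adjusted p below 0.05, and 4248 genes (30.8%) were called. Of these, 1312 (9.52% of those tested) were higher and 2936 (21.3%) were lower in metafemales. In 7627 of the genes tested (55.3%) the 3 metafemale libraries did not overlap with the 3 male libraries in CPM. The median log2 fold change of all genes was -0.11 with TMM scaling and -0.31 with library totals alone, so small changes of a gene group are read against this shift.

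The lower genes were mostly at low levels in metafemales. Of the 2936 lower genes, 2497 (85.0%) had a mean under 1 CPM in metafemales and 911 had no count in any of their libraries. The median log2 fold change of the lower genes was -6.62 as fitted, and -5.20 when genes at 0 were set to the bound that 3 counts in each library allow. The higher genes changed less, with a median of 1.52, and 348 of them (26.5%) were under 1 CPM in males. With at least 10 counts in every male library and none in any metafemale library there were 903 genes, of which 665 had no count in any female library either. The reverse held for 11 genes.

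On the X, 459 genes were higher and 364 were lower among 2174 tested, and on the autosomes 847 were higher and 2535 lower among 11539. With library totals in place of TMM, 311 X-linked genes were higher and 372 lower. Split by the level in females after seeing the data, the X genes with at least 1 CPM in females included 376 higher and 27 lower genes of 1548 tested. The autosomal genes of this class included 589 higher and 516 lower genes of 7899. Among genes under 1 CPM in females, 83 X-linked genes were higher and 337 lower of 626, and 258 autosomal genes were higher and 2019 lower of 3640. By count, higher calls outnumbered lower calls on the X only in the genes that females also express. Most lower calls of the X and the autosomes lay in the others. In that class 13.3% of the X-linked and 7.09% of the autosomal genes were higher. The filter used male and metafemale libraries alone, so genes counted mainly in males could enter this class, and its share of lower calls is only a description.

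Both RNAs of the dosage compensation complex were lower in metafemales. lncRNA:roX2 was measured at 0.179, 0.167 and 0.225 CPM in metafemales and at 311, 187 and 291 CPM in males. It fell by 10.29 ± 0.469 (SE) on the log2 scale (edgeR adjusted p = 3.69e-05). lncRNA:roX1 stood at 14.6, 9.57 and 3.83 CPM against 325, 324 and 238 CPM, a log2 fold change of -4.81 ± 0.482 (edgeR adjusted p = 0.000337). The groups did not overlap for either RNA, and control females held 0.473 to 3.34 CPM of roX2 and 5.29 to 18.4 CPM of roX1. roX1 thus stayed well above roX2 in metafemales.

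Of the proteins of the complex, only msl-2 and msl-3 were called among the 8 listed members, which with both RNAs made 4 lower and none higher. Over all genes tested, 9.52% were higher and 21.3% lower. Without the fold threshold, 6 of the 8 members were lower at an edgeR adjusted p below 0.05, beside 3887 of all 13784 genes tested. msl-2, the protein whose synthesis Sxl blocks in females, was at 3.65, 2.87 and 3.50 CPM in metafemales and at 10.9, 15.6 and 7.63 CPM in males (log2 fold change -1.54 ± 0.170, edgeR adjusted p = 0.000522). msl-3, which binds the chromatin mark of active genes, had a log2 fold change of -1.07 ± 0.157 (edgeR adjusted p = 0.00194) and was no longer past the 2-fold threshold with TMM over autosomal genes. The acetyltransferase mof, itself X-linked, had 4.29, 3.74 and 4.25 CPM against 4.24, 6.72 and 3.35 CPM, and its groups overlapped. The helicase mle and the scaffold msl-1 did not pass the 2-fold threshold, with log2 fold changes of -0.52 and -0.31.

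In sex determination, 3 of 14 listed genes were higher and none lower, beside 9.52% higher and 21.3% lower over all genes tested. Sxl, the X-linked switch gene of the female pathway, stood at 259, 163 and 194 CPM in metafemales and at 90.5, 123 and 59.7 CPM in males (log2 fold change 1.39 ± 0.189, edgeR adjusted p = 0.00135), and control females held 168 to 186 CPM. The neural sex determination gene fru was at 768, 419 and 488 CPM against 313, 243 and 198 CPM (log2 fold change 1.32 ± 0.244, edgeR adjusted p = 0.0052). tra was called at a log2 fold change of 1.17, but its call was lost with library totals in place of TMM and when any library other than control male 2 was left out. These values are gene totals over all transcripts, so the sex-specific splice forms of Sxl, tra, fru and dsx are not separated.

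**Figure D3:**
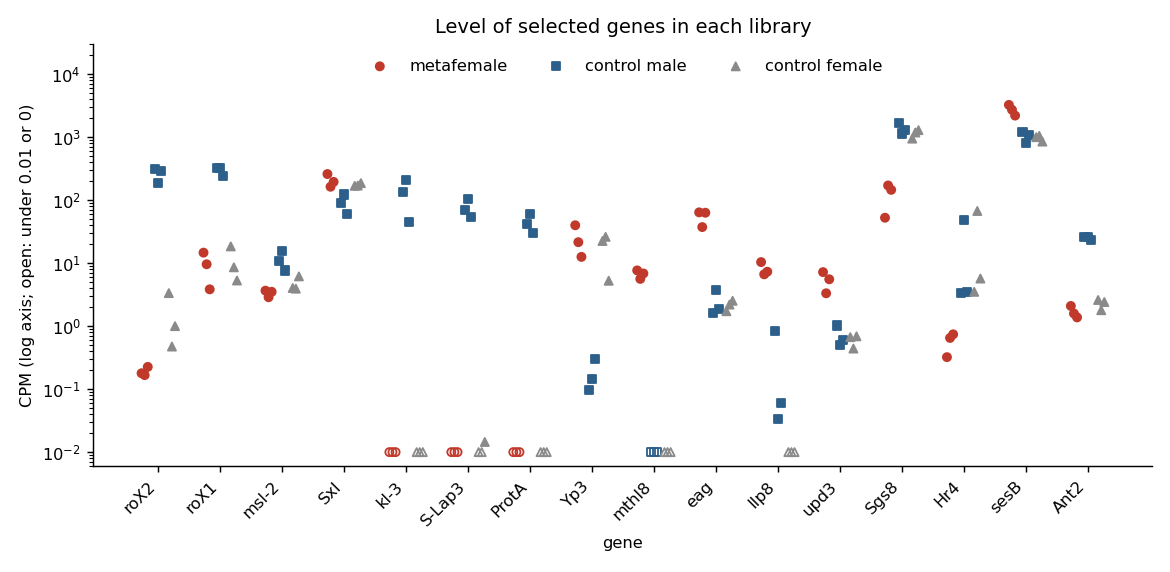
Level of 16 genes named in the text (x axis) in each library, in CPM on a log axis, for metafemales (circles), control males (squares) and control females (triangles). Open symbols lie under 0.01 CPM or at 0. roX1, roX2 and the testis genes kl-3, S-Lap3 and ProtA are high in males alone, and mthl8 is counted in metafemales alone.

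Genes of the testis and the Y made up the largest falls. Of 16 Y-linked genes tested, all 16 were lower. This outcome was fixed in advance, since the metafemale genotype holds no Y and these genes entered the test through the males alone. kl-3, an axonemal dynein heavy chain of the sperm tail encoded on the Y, had no count in metafemales and 135, 210 and 45.4 CPM in males, at least 6850-fold higher. The Y-linked dynein gene kl-5 was at 0 against 42.1, 92.5 and 18.8 CPM, at least 2690-fold higher in males. All Y-linked list members were at 0 in the metafemale libraries, whereas males held a summed 305, 534 and 151 CPM.

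Nearly all listed sperm genes were lower too, beside 9.52% higher and 21.3% lower over all genes tested. The filter used male and metafemale libraries alone. Genes counted mainly in males could thus be tested, and the counts of testis lists are only a description. Of 44 listed genes of spermatids and sperm, 42 of them autosomal, 43 were lower and none higher, with a median log2 fold change of -9.21 as fitted and -8.52 with genes at 0 set to their bound. ProtA, a protamine-like protein that packs DNA in the sperm head, was at 0 against 41.8, 60.9 and 30.0 CPM, at least 2320-fold higher in males. Mst84Db, a sperm tail protein, was at 0 against 27.0, 28.4 and 23.1 CPM, at least 1380-fold higher. The S-Lap genes, leucyl aminopeptidase relatives that are abundant in sperm, were lower in 7 of 7, and S-Lap3 was at 0 against 68.8, 105 and 54.0 CPM, at least 3990-fold higher in males. Summed over the spermatid list, males held 899, 1312 and 682 CPM, metafemales 31.5 to 58.9 CPM and females 42.1 to 49.6 CPM, so the metafemales lay at the level of females. Control male 2 was the highest and control male 3 the lowest male in these sums, as for the Y-linked genes. In bulk samples, fewer cells of a type and less RNA per cell cannot be told apart.

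The regulators that switch on this program in spermatocytes, known as meiotic arrest genes, were lower in 13 of 14 with a median of -5.42. Over all genes tested, 21.3% were lower, and the limit of the filter given for the sperm genes holds here as well. can, a testis-specific TFIID subunit, stood at 0.0786, 0.0774 and 0.0296 CPM against 9.26, 10.5 and 7.09 CPM (log2 fold change -6.97 ± 0.354, edgeR adjusted p = 4.41e-05). topi, a zinc-finger protein of the same set, stood at 0.393, 0.262 and 0.409 CPM against 7.82, 9.23 and 6.17 CPM (log2 fold change -4.25 ± 0.200, edgeR adjusted p = 3.94e-05). Control females held 0.780 to 1.38 CPM of topi. The groups of both genes lay far apart, and only mia missed the call, at a log2 fold change of -0.97.

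Among genes of the germ line and of egg formation, calls were made in both directions. Of 18 listed germline and oogenesis genes, 4 were higher and 7 lower, beside 9.52% and 21.3% of all genes tested. The higher genes were Sxl and the yolk proteins Yp1, Yp2 and Yp3, which the adult female fat body and follicle cells make. Yp3 was at 39.8, 21.5 and 12.5 CPM in metafemales and 0.0976, 0.146 and 0.298 CPM in males, 7.20 ± 0.691 higher on the log2 scale (edgeR adjusted p = 0.000281), and females held 22.4, 26.1 and 5.24 CPM. The lower genes included the RNA localization factor exu, at 6.38, 4.70 and 2.04 CPM against 176, 255 and 139 CPM (log2 fold change -5.24 ± 0.435, edgeR adjusted p = 0.000155). The piRNA pathway gene aub, at 0.707, 0.542 and 0.681 CPM against 6.11, 6.44 and 4.99 CPM, fell by 2.996 ± 0.165 on the log2 scale (edgeR adjusted p = 5.15e-05).

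Several housekeeping complexes have a second set of subunits used in the testis, and these paralogs were lower in metafemales. The pairs below were put together after the values were seen, so their counts are a description, and no difference within a pair was tested. In 40 of 40 pairs of a widely used subunit and its paralog, from the respiratory chain, the proteasome and the cytosolic ribosome, the paralog was lower in metafemales. Of the 34 partners, 11 were higher, none was lower and 23 were not called. Over all genes tested, 9.52% were higher and 21.3% lower. ND-24, an X-linked complex I subunit, was at 73.7, 73.9 and 55.3 CPM against 26.6, 22.8 and 27.6 CPM (log2 fold change 1.56 ± 0.245, edgeR adjusted p = 0.00259). Its paralog ND-24L was at 0 against 4.93, 5.25 and 3.97 CPM. In the proteasome, which degrades tagged proteins, all 15 paralogs were lower and none of the 32 common subunits was called in either direction, with a median of -0.60. With library totals in place of TMM, 5 of the 32 were called lower. Without the fold threshold, 22 of the 32 were lower and none higher at an edgeR adjusted p below 0.05. By that measure, 3887 of all 13784 genes tested were lower. Their summed level was 1546, 1739 and 1838 CPM in metafemales and 2690, 3693 and 2180 CPM in males.

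**Figure D4:**
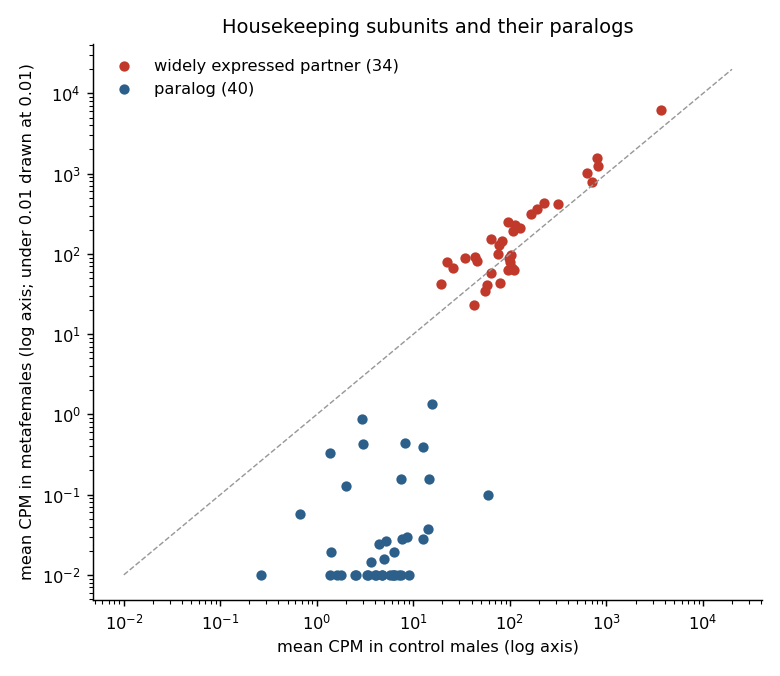
Mean CPM in metafemales (y axis) against mean CPM in control males (x axis), both on log axes, for 34 widely expressed subunits and their 40 paralogs, with values under 0.01 drawn at 0.01. The dashed line marks equal levels. All paralogs lie below the line, and the partners lie on both sides of it, 11 of them called higher.

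Calls in both directions were made for the respiratory chain, beside 9.52% higher and 21.3% lower over all genes tested. Of the 91 nuclear genes of oxidative phosphorylation tested, 36 were higher and 21 lower, and the 21 lower genes were all paralogs whose names end in L or in L and a digit. Among the other 70 genes, a split made after the values were seen, the median log2 fold change was 1.04, with 1.39 for the 13 X-linked genes, all called higher, and 0.95 for the 57 autosomal genes, of which 23 were called. ND-20, an X-linked complex I subunit, was at 101.8, 95.3 and 76.0 CPM against 50.6, 34.0 and 45.3 CPM (log2 fold change 1.22 ± 0.270, edgeR adjusted p = 0.0108). The autosomal subunit COX7A of cytochrome c oxidase was at 190, 152 and 120 CPM against 68.0, 50.8 and 72.8 CPM (log2 fold change 1.398 ± 0.293, edgeR adjusted p = 0.00871). The count of higher genes was 22 with library totals in place of TMM, 18 without control male 1, 19 without control male 2, 22 without metafemale 1 and 19 without metafemale 2.

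The genes of the adenine nucleotide translocator, which exchanges ADP and ATP across the inner mitochondrial membrane, moved in opposite directions although they are neighbours on the X. sesB was at 3239, 2708 and 2192 CPM in metafemales and 1187, 812 and 1076 CPM in males (log2 fold change 1.55 ± 0.302, edgeR adjusted p = 0.00651). Ant2 was at 2.09, 1.58 and 1.37 CPM against 26.4, 25.9 and 23.0 CPM (log2 fold change -3.73), and females held 1.79 to 2.59 CPM. Both genes were chosen after their values were seen. The paired genes share part of their transcripts' 5′ region, and how reads were divided between them was not tested.

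Ribosomal protein genes allowed X-linked and autosomal members of a single functional class to be compared. Over genes with at least 100 CPM, a limit set after seeing the data, the median log2 fold change was 0.84 for 14 X-linked genes and 0.31 for 63 autosomal genes, a difference of 0.53. Of the 14 X-linked genes, 13 lay above the autosomal median. The exception was RpL17, at 476, 489 and 499 CPM against 1587, 1243 and 1644 CPM (log2 fold change -1.46, edgeR adjusted p = 0.00554). In females RpL17 was at 1407, 1422 and 309 CPM, so its value varied between libraries of 1 group by more than the change. Over the whole list of 93 tested genes, 2 were higher and 9 lower. The count of higher genes was 0 with library totals and 0 without control male 2, and 7 without control male 3. For mitochondrial ribosomal proteins, 5 of 75 were higher, 4 of them X-linked, and none was lower. Their median was 0.85 on the X and 0.19 on the autosomes. Over all genes tested, 9.52% were higher and 21.3% lower, so neither ribosomal list exceeded these shares. That count of 5 was 2 with library totals and 3 without control male 2 or metafemale 2.

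The X-linked genes with the highest expression in both groups lay near or above the X median. wupA, which encodes troponin I of muscle, was at 6343, 4469 and 3618 CPM in metafemales and 2523, 1388 and 1752 CPM in males (log2 fold change 1.49 ± 0.353, edgeR adjusted p = 0.014). The larval serum protein gene Lsp1alpha, an X-linked storage protein of the fat body, was at 10530, 8656 and 8742 CPM against 7618, 5285 and 8244 CPM, and its log2 fold change of 0.53 ± 0.346 did not pass the test (edgeR adjusted p = 0.254). RpS5a, a ribosomal protein, had a log2 fold change of 0.90 ± 0.253 (edgeR adjusted p = 0.027), under the 2-fold threshold.

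Some genes rose by far more than the median of the X. The largest increase among genes that averaged 5 CPM or more in the higher group was that of mthl8 on 3L, a receptor of the Methuselah-like family, at 7.65, 5.61 and 6.84 CPM in metafemales and without a count in any male or female library, at least 323-fold higher. On the X, CG43133 was at 5.66, 5.72 and 5.63 CPM against 0, 0.0169 and 0 CPM (edgeR adjusted p = 5.78e-05). eag, an X-linked potassium channel gene, was at 63.8, 37.3 and 63.0 CPM against 1.61, 3.78 and 1.85 CPM (log2 fold change 4.72 ± 0.334, edgeR adjusted p = 8.66e-05), and females held 1.72 to 2.52 CPM. CG4991, also on the X, was at 31.0, 31.6 and 31.1 CPM against 2.58, 0.984 and 2.41 CPM (log2 fold change 4.09 ± 0.485, edgeR adjusted p = 0.000721). The female libraries stayed close to the male level for eag and CG4991 and at 0 for mthl8. Acsx1L on 3R, at 4.73, 7.05 and 4.91 CPM against 0, 0.0112 and 0.199 CPM, and CG13560 on 2R, at 20.8, 17.2 and 16.2 CPM against 0.105, 0.00562 and 0.428 CPM, followed the same order.

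A total of 27 X-linked genes with at least 1 CPM in females were lower in metafemales. They included both roX RNAs, lncRNA:CR43264, Ant2, RpL17 and the ecdysone-regulated genes Hr4 and br. The call of Hr4 was lost without any 1 of the metafemale libraries, and that of br without any 1 library other than control male 3, with either other scaling, without a filter on low counts and with the replicate block. The groups overlapped for br. lncRNA:CR43264, singled out after its values were seen, was at 1.54, 2.26 and 2.31 CPM in metafemales and 71.2, 47.9 and 64.4 CPM in males (log2 fold change -4.74), and females held 5.19 to 7.93 CPM. Over all noncoding genes, 930 lncRNA genes were tested, 44 were higher and 413 lower (49.1% called in all). Over all genes tested, 9.52% were higher and 21.3% lower (30.8% called in all). Genes counted mainly in males could pass the filter, so the share of lower lncRNA genes is only a description. The 805 autosomal lncRNA genes had a median of -1.27 and the 125 X-linked genes a median of 0.16 with genes at 0 set to their bound. Among the most strongly lower ones, lncRNA:CR43803 on 2L was at 0 against 21.1, 17.4 and 12.8 CPM. Most of these genes had little or no expression in females as well. Over lncRNA genes that averaged 1 CPM or more, the median CPM ratio was 0.966 for 53 X-linked and 0.741 for 119 autosomal genes. The X-linked value was 0.760 without metafemale 1, 1.25 for genes with 10 counts or more in each library and 1.32 for genes that females also express, so its side of 1 depended on the genes taken. The autosomal value was 0.208 over genes with any count in males. That set keeps genes counted only in males and drops those counted only in metafemales, which by itself favours low ratios.

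Salivary glue genes, which the larval gland makes late in larval life to fix the pupal case, were mostly lower in metafemales. Of 11 tested, 7 were lower and 3 higher, beside 21.3% lower and 9.52% higher over all genes tested. Sgs8 was at 52.5, 171 and 145 CPM against 1656, 1139 and 1295 CPM (log2 fold change -3.26 ± 0.543, edgeR adjusted p = 0.0033). Sgs7 was at 325, 770 and 649 CPM against 4087, 2954 and 3015 CPM (log2 fold change -2.32 ± 0.433, edgeR adjusted p = 0.00537). The libraries of the groups did not overlap in either gene, and females were near males. The higher genes were ng1, ng2 and ng3, X-linked genes of a cluster expressed in the gland before the glue genes. The call of ng1 was lost without control male 1 or metafemale 2. ng3 was at 101.5, 106 and 68.5 CPM against 19.4, 13.9 and 25.3 CPM (log2 fold change 2.36 ± 0.387, edgeR adjusted p = 0.00308).

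Genes induced by ecdysone, the molting hormone, were split. Of 22 listed genes, 6 were lower and 3 higher, with a median of -0.35, and 21.3% of all genes tested were lower. The nuclear receptor gene Hr3 was at 1.31, 1.01 and 1.28 CPM in metafemales and 5.76, 16.2 and 5.09 CPM in males (log2 fold change -2.64 ± 0.372, edgeR adjusted p = 0.00161). ImpE1, a gene of imaginal disc cells, was at 2.74, 1.23 and 3.16 CPM against 15.2, 40.6 and 9.33 CPM (log2 fold change -2.91 ± 0.520, edgeR adjusted p = 0.00442). Control male 2 was the highest male in both, and also of Hr4, at 48.1 CPM against 3.36 and 3.43 CPM in the other males. The count of 6 lower genes was 3 without metafemale 1 and 2 without metafemale 2. The higher genes were Cyp18a1, which inactivates the hormone, Hr38 and ftz-f1, and Cyp18a1 was at 17.9, 12.6 and 9.71 CPM against 3.76, 2.25 and 3.93 CPM (log2 fold change 2.13 ± 0.372, edgeR adjusted p = 0.00404). Of 13 tested genes of ecdysone synthesis, 3 were lower and none higher, with 1 without metafemale 2, so the share of lower genes in both lists was near that of all genes.

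Among the 12 genes of juvenile hormone, 3 were higher and 1 lower, beside 9.52% and 21.3% of all genes tested. JhI-26, a gene induced by the hormone, was at 138, 110 and 111 CPM against 38.7, 15.3 and 35.2 CPM (log2 fold change 2.11 ± 0.433, edgeR adjusted p = 0.00792). Jheh3, an enzyme that breaks the hormone down, was at 156, 134 and 110 CPM against 47.9, 22.7 and 52.0 CPM (log2 fold change 1.81 ± 0.422, edgeR adjusted p = 0.0133). Both genes lay near the male level in females, at 26 to 33.3 CPM and 37.5 to 42.8 CPM. The labels give no age within the third instar.

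Among genes that respond to damage of imaginal discs, 8 of 21 were higher, none was lower and 13 were not called. Over all genes tested, 9.52% were higher and 21.3% lower. Ilp8, a relaxin-like peptide that damaged discs release and that delays metamorphosis, was at 10.4, 6.63 and 7.29 CPM against 0.834, 0.0337 and 0.0611 CPM (log2 fold change 4.90 ± 1.13, edgeR adjusted p = 0.0128), and it had no count in any female library. The JAK/STAT ligand upd3, encoded on the X, was at 7.19, 3.32 and 5.53 CPM against 1.02, 0.5 and 0.611 CPM (log2 fold change 3.05 ± 0.394, edgeR adjusted p = 0.00108). Its family members upd1 and upd2 and the pathway target Socs36E, at 159, 109 and 180 CPM against 53.2, 54.5 and 29.6 CPM, were also called higher. Ets21C, a transcription factor activated by stress signalling in discs, was at 6.45, 4.54 and 8.28 CPM against 1.35, 1.35 and 1.01 CPM (log2 fold change 2.57 ± 0.242, edgeR adjusted p = 0.000261). The proapoptotic gene rpr and Gadd45 completed the set.

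Of 40 tested antimicrobial and immune genes, 16 were higher, 1 was lower and 23 were not called, with a median of 1.07. The shares over all genes tested were 9.52% higher and 21.3% lower. Mtk, the antimicrobial peptide metchnikowin, was at 6.64, 27.6 and 14.0 CPM against 0.698, 0.922 and 1.02 CPM (log2 fold change 4.41 ± 0.644, edgeR adjusted p = 0.00187). CecC, a cecropin, was at 7.45, 9.32 and 21.2 CPM against 0.608, 1.35 and 1.44 CPM (log2 fold change 3.66 ± 0.582, edgeR adjusted p = 0.00272). The male libraries lay below all metafemale libraries in both genes. Females overlapped with metafemales for Mtk, at 5.14, 2.43 and 10.03 CPM, and for the diptericin DptB, at 67.2, 2.33 and 67.1 CPM against 21, 69.2 and 43.1 CPM in metafemales. In the stress-induced Turandot family, 2 of 3 tested genes were higher, and TotC was at 3.46, 2.47 and 2.71 CPM against 0.0376, 0 and 0.0382 CPM (log2 fold change 7.02 ± 0.823, edgeR adjusted p = 0.000687).

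Of 17 blood cell genes, 8 were higher and 1 lower, beside 9.52% and 21.3% of all genes tested. Hml, hemolectin of larval plasmatocytes, was at 478, 262 and 374 CPM against 184, 160 and 120 CPM (log2 fold change 1.44 ± 0.216, edgeR adjusted p = 0.00213). The collagen IV gene vkg, which blood cells and fat body secrete into basement membranes, was at 232, 153 and 131 CPM against 53.9, 44.4 and 40.3 CPM (log2 fold change 2.06 ± 0.229, edgeR adjusted p = 0.000545). The phagocytosis receptor gene NimC2 went the other way, at 4.13, 9.98 and 20.8 CPM against 105, 203 and 114.8 CPM (log2 fold change -3.34 ± 0.622, edgeR adjusted p = 0.00532). The groups did not overlap for these genes.

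Fat body, muscle and gut lists had more higher than lower members, beside 9.52% higher and 21.3% lower over all genes tested. In the fat body, 6 of 22 genes were higher and none lower, among them ACC, acetyl-CoA carboxylase of fatty acid synthesis, at 307, 193 and 158 CPM against 71.9, 59.3 and 71.2 CPM (log2 fold change 1.83 ± 0.286, edgeR adjusted p = 0.00248). The other 16 members were not called. The count of higher genes was 3 without control male 1 and 3 without metafemale 1. The summed fat body level overlapped between the groups, at 64270, 44660 and 48490 CPM in metafemales and 46020, 38430 and 49620 CPM in males. In muscle, 6 of 24 genes were higher and none lower, with 2 without metafemale 1 and 3 without metafemale 2. The summed muscle level was 54610, 42650 and 33310 CPM in metafemales and 30990, 15750 and 22480 CPM in males, so metafemale 1 was the highest library. Of 47 digestive enzyme genes, 13 were higher and none lower. That count fell to 4 without control male 1, 6 without metafemale 1, 5 without metafemale 2 and 5 without metafemale 3.

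Detoxification enzymes had more higher than lower calls, beside 9.52% higher and 21.3% lower over all genes tested. Of 80 cytochrome P450 genes, 20 were higher and 5 lower, with 12 higher without control male 1, 12 without metafemale 1, 11 without metafemale 2 and 13 without metafemale 3. Cyp6a23 was at 803, 657 and 458 CPM against 140, 19.0 and 130 CPM (log2 fold change 2.80 ± 0.784, edgeR adjusted p = 0.0263), a call that was lost without control male 1, metafemale 1 or metafemale 2. Of 67 genes of glutathione and UDP-sugar conjugation, 17 were higher and 6 lower, and without metafemale 1 the higher genes were 9. GstE7, a glutathione transferase, was at 14.0, 13.1 and 12.5 CPM against 1.65, 0.427 and 1.76 CPM (log2 fold change 3.46 ± 0.615, edgeR adjusted p = 0.00433).

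Cuticle genes changed in both directions, 16 higher and 9 lower of 73, with 10 higher without control male 1. Over all genes tested, 9.52% were higher and 21.3% lower. Cpr47Eg was at 38.9, 59.6 and 7.67 CPM against 0.556, 0.568 and 1.86 CPM (log2 fold change 5.25 ± 1.03, edgeR adjusted p = 0.00653). Metafemale 3 was the lowest metafemale for it and for the near-identical copies Cpr65Ax1 and Cpr65Ax2, whose reads could be split between them. Heat shock genes were lower in 9 of 25 and higher in 2. The lower genes included Hsp60B, Hsp60C and Hsp60D, which are used in the testis, and the developmentally regulated small heat shock proteins. Hsp26 of the latter group was at 0.950, 2.74 and 4.09 CPM against 31.4, 48.2 and 26.5 CPM (log2 fold change -3.50 ± 0.556, edgeR adjusted p = 0.00267). The 2 higher calls were 0 without control male 2, 0 without metafemale 2, 8 without metafemale 1 and 1 without any of the other libraries.

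**Figure D5:**
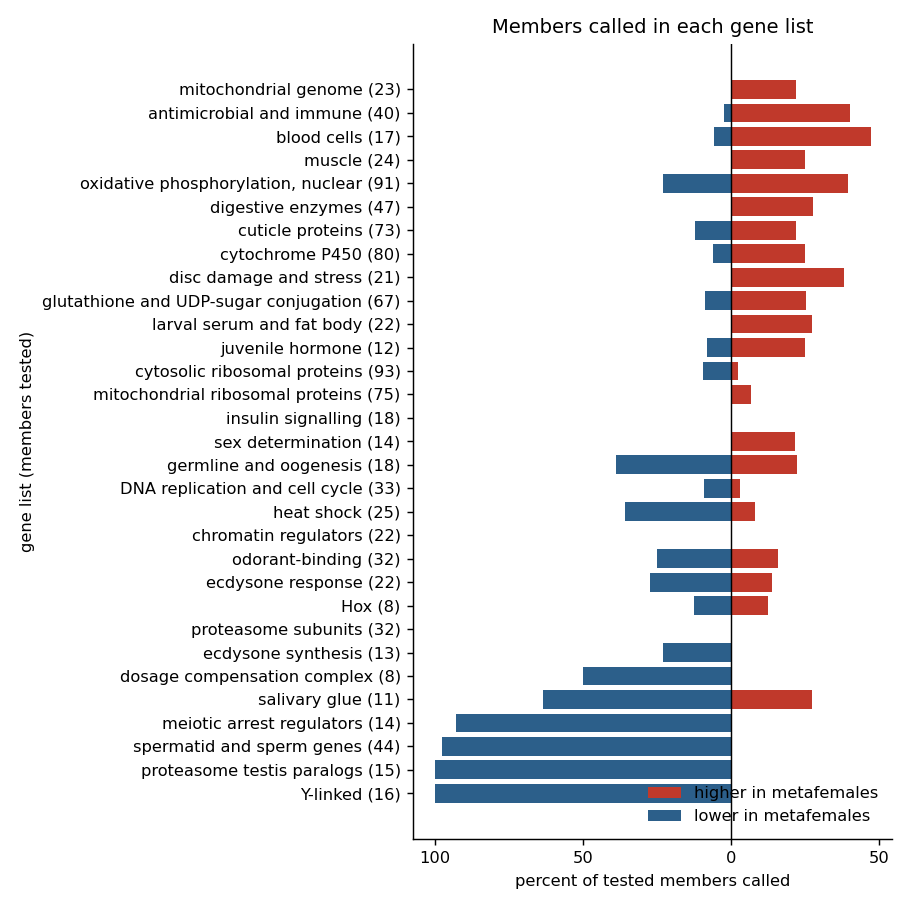
Percent of the tested members of each gene list (y axis, number tested in brackets) called higher (right) or lower (left) in metafemales, for lists with at least 8 members tested and ordered by their median log2 fold change. Lists of the testis and the Y stand at the lower end, and the disc damage, immune and blood cell lists have more higher than lower calls.

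The remaining lists had few calls, beside 9.52% higher and 21.3% lower over all genes tested. None of 18 insulin signalling genes was called in either direction, with a median of 0.17 that was -0.05 with library totals. None of 22 chromatin regulators was called, with a median of -0.26. Of 33 DNA replication and cell cycle genes, 1 was higher and 3 lower, the lower ones being Orc3, aurA and CycB. CycB, cyclin B, was at 12.8, 12.7 and 14.2 CPM against 39.0, 53 and 30.8 CPM (log2 fold change -1.41 ± 0.143, edgeR adjusted p = 0.000352). Of the marker genes of the attached X, the body colour gene y was called higher, a call that was lost without control male 1, whereas w was at 17.7, 13.9 and 14.7 CPM against 24.5, 32.4 and 21.4 CPM with a log2 fold change of -0.56. The mitochondrial genome had 5 higher and no lower genes of 23 tested and a median of 1.22. Those 5 were 3 without control male 3, 3 without metafemale 1 and 2 without metafemale 2. This list holds noncoding genes as well, and of its 13 protein-coding genes tested 2 were higher, with a median of 0.72. mt:ND4 was near 0 in control males 2 and 3 but at 252 CPM in control male 1, and it was not called.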

How the data were processed

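Libraries were assigned to groups by the sample labels and the columns of the table. The authors aligned the reads with HISAT2 after Trimmomatic, using the BDGP6 genome, and deposited StringTie's expected counts for each transcript. The values are whole numbers and were not normalized. Here, 34750 of 34919 FlyBase transcripts were summed into genes through the annotation of Ensembl release 115 (BDGP6.54), and 169 without a gene there were left out. The 8017 assembled transcripts count only toward library totals. Whether strand was used in counting is not given in the sources used here, so overlapping and antisense genes are uncertain.

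Fold changes came from edgeR 4.0.16 (R 4.3.3; TMM, filterByExpr, quasi-likelihood test, Benjamini-Hochberg adjustment), with calls at a log2 fold change over 1 and adjusted p below 0.05. On simulated data it recovered 181 of 200 genes changed by 2 on the log2 scale, with 4 other calls among 13865 genes. The simulation gave all genes a common dispersion of 0.1218, raised as many genes as it lowered and left out weakly counted genes from the change. It therefore checks the code and does not measure the error of the real calls. CPM ratios used the totals of the whole table. A group at 0 was given a floor of 3 counts per library. Genes were named by a rule: the 10 highest and 10 lowest called genes that averaged 5 CPM or more in the higher group, without overlap, 5 X-linked genes per direction, the 5 autosomal genes with a name that rose most, the 5 X-linked genes of highest level, and up to 4 members of each list by size of change or level. Genes named outside it were chosen after their values were seen. The comparison, gene lists and tests were chosen with earlier results of these data known. DESeq2 1.42.0, other scalings and filters, all 9 libraries, a replicate block and leaving out each library were tried.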

Additional observations from a re-analysis of the deposited data

Results flagged for a closer look

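Transcripts assembled without an annotated identifier were used in no comparison of genes. Of 8017 such transcripts, 3251 had a mean of at least 1 CPM over the 6 libraries. A total of 311 were higher in every metafemale library than in every control male library, with a mean over 2-fold higher and at least 1 CPM, and 482 were lower by the same measure. These counts carry no test, and metafemale 1 held a smaller share of assembled transcripts than the other libraries.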

How the results depend on the processing

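Over all genes and over the autosomes, more genes were lower than higher in metafemales under every alternative tried. On the X the order turned with library totals in place of TMM, from 459 higher and 364 lower to 311 higher and 372 lower. The calls of all genes ranged from 3914 to 4444 when 1 library was left out, with 1026 to 1455 higher and 2846 to 2989 lower. With a replicate block they were 3623 (1003 higher and 2620 lower). The deviations of libraries with the same number correlated at 0.04, -0.169 and -0.065, and those with different numbers at -0.105 to 0.176. These values show no pairing by number, but with 3 libraries a group they cannot exclude a shared culture or batch. DESeq2 called 4731 genes. Restricting the test to a mean of at least 1 CPM left 1889 lower genes, of which 208 on the X and 1668 on the autosomes. Without a fold threshold, 2404 genes were higher, 960 on the X (1345 called there in all) and 1437 on the autosomes. The X median ratio was 1.51 with TMM-normalized CPM, 1.499 with DESeq2 size factors and 1.43 at a mean of at least 10 CPM, and 1.20 to 1.46 with 1 library left out. The autosomal median was 0.912, 0.905 and 0.882 in the same settings, and 0.723 to 0.880. The X over autosomal median was 1.64 with any male count, 1.61 at 10 CPM, 1.61 at 10 counts in each library, 1.64 as a ratio of group medians and 1.61 for genes expressed in females, the last chosen after seeing the data, and it was 1.659 to 1.67 with 1 library left out. Of 138 named genes called, 32 lost the call under at least 1 alternative, 7 of them only when 1 library was left out, and 21 lost it with the replicate block. Eig71Ea, not called, changed sign to -0.064 with library totals, -0.40 with the replicate block and -0.64 without metafemale 3, and ranged from -0.637 to 0.747 with 1 library left out. With the replicate block, the higher calls were 16 for oxidative phosphorylation and 8 for cuticle genes, fewer than the 21 and 9 lower calls of these lists, 5 for digestive enzymes and 12 for cytochrome P450. DESeq2 gave 25 higher cuticle and 10 higher muscle genes. The design holds 3 libraries a group, so an exact permutation p cannot fall below 0.1, and genes under the floor of 3 counts give only a bound.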
